A study of Homo sapiens with 2 samples.

Results

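Known target genes of hypoxia-inducible factor (HIF) were compared between spheroids and monolayer cells of HT-29, a human colorectal adenocarcinoma line. The 10 members are ANKRD37, ANGPTL4, ADM, VEGFA, PDK1, BNIP3, BNIP3L, NDRG1, PFKFB3 and PFKFB4, that is 10 of 19775 genes with a probe set of their own, and the platform annotation assigned 20 probe sets to them. HT-29 spheroids were grown for 5 days on low-adhesion plates in stem cell media that held B27, EGF and FGF. HT-29 monolayer cells were kept attached in medium with 10% fetal bovine serum, so that medium and growth form cannot be told apart. For either culture 1 Affymetrix array was analysed, which limits the precision. No difference given here has a replicate check, a test or a p-value. Several members were chosen by their higher signal in spheroids on these same arrays, so the differences of these 10 genes describe the choice and support nothing. In RNA of whole cultures, fewer cells of a type and less RNA per cell cannot be told apart.

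HIF is a transcription factor made of an oxygen-labile alpha subunit and the stable partner ARNT. When oxygen is scarce, prolyl hydroxylases no longer mark the alpha subunit for destruction, and HIF binds a short core motif near its target genes. The products of the members belong to several arms of that response. VEGFA and ADM act on blood vessels, ANGPTL4 on lipid supply, PDK1, PFKFB3 and PFKFB4 on the use of glucose, BNIP3 and BNIP3L on the removal of mitochondria, and NDRG1 on the stress response of epithelial cells. Cells inside a solid tumour or a dense spheroid can lie far from the oxygen source, and the pathway is widely active in colorectal cancer.

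Values are MAS5 signals, linear intensities that sum up the probes of a probe set. The trimmed mean signal (2% off each end) was 500.1 on either array, and the median 64.4 for spheroids and 61.1 for monolayer. A floor of 62.7, the median over both arrays together, replaced any lower signal, differences were taken on the log2 scale, and the brightest probe set stood for its gene. Each of the 18 spike-in probe sets for hybridisation had a lower signal for spheroids, with a mean log2 difference of -0.25. GAPDH control probe sets had a 3' to 5' ratio of 1.07 in spheroids and 1.05 in monolayer, and those of ACTB 3.65 and 4.07. Of 11 colon epithelial markers 8 were measured, 1 at least 2-fold higher and 0 lower. General epithelial genes were bright, with EPCAM at 22299 in spheroids and 21151 in monolayer, KRT18 at 22627 and 29713, KRT8 at 6762 and 8497, and CDH1 at 6059 and 4544. Intestinal markers were dim for cells labelled as a colon cancer line. The name HT-29 is that of the sample labels, and the identity of the cells was not tested. KRT20 had 218.4 in spheroids and 99.6 in monolayer (2.19-fold higher), CEACAM5 (105.5 and 12.3) and CDX2 (80.0 and 55.9) were above the floor in spheroids only, VIL1 (27.2 and 100.5) in monolayer only, and CDH17, CDX1 and LGALS4 on neither array. Summed signals of 6 endothelial markers were 184.9 in spheroids and 271.4 in monolayer. All but PECAM1 (99.5 and 123.7) were under the floor on both arrays. Summed signals of 5 leukocyte markers were 109.7 and 148.2, with all 5 leukocyte markers under the floor. The fibroblast sum of 2174 in spheroids and 1547 in monolayer came mostly from COL1A1 (1972 and 1370), and COL3A1, DCN, LUM and PDGFRB were under the floor on both arrays.

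The core motif of HIF, searched on either strand as ACGTG and, in its other common form, as GCGTG, occurred close to the start of every member whose promoter could be read. Windows from 250 bases before to 50 after a gene start were taken from RefSeq (GRCh38.p14) for 7 members, PDK1 and PFKFB3 with 2 starts each. VEGFA, BNIP3L and NDRG1 were not searched. A match was found in 8 of the 9 windows, against 48.4% of 35116 windows of all genes. Both motifs hold a CG, and the windows of the members were rich in it, with a median of 30 CG pairs against 14 in all windows. Among all windows with 30 or more CG pairs 70.1% held a match, and 7 of 7 windows of reference genes such as GAPDH and RPLP0 held one too. Nothing particular to the members is read from the count. The stretches around the matches are shown because they hold the letters that HIF is known to read. They run 5' to 3' on the strand of the gene, with the matched letters in capitals. A capital CACGT is ACGTG on the opposite strand, and a capital CACGC is in the same way GCGTG.
ANKRD37: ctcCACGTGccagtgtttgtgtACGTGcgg
ANGPTL4: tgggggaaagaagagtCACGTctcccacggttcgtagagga
ADM: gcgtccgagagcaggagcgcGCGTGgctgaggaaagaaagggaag
PDK1, start 2: tgctgcccgcCACGTccctCACGTacc
BNIP3: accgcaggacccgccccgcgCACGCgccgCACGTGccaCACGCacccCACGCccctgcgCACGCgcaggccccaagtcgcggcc
PFKFB3, start 1: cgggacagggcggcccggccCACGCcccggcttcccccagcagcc
PFKFB3, start 2: ccctcctcccCACGTGgaagggggct
PFKFB4: agttgggcatGCGTGgtcggaggcc

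The ANKRD37 stretch lies at chr4:185396676-185396705 on the plus strand, within the bounds of the neighbouring gene LRP2BP, and holds 2 places with a match, of which the first reads CACGTG. This palindrome matches on both strands and is also the E-box read by factors such as MYC and USF. It was present in 7.26% of all windows and in 3 of the 9 member windows. These were ANKRD37, BNIP3 and PFKFB3 start 2, where it is the only place with a match. The palindrome holds a CG too. Its share was 14.3% in windows of reference genes and 3.57% in those of paralogs of the members. In windows of other HIF targets it was 15.8% (glucose use) and 17.8% (signalling, matrix and stress). Nothing particular to the members is read from it. The BNIP3 stretch, at chr10:131982003-131982086 on the minus strand upstream of the gene, held 5 places, more than any other window of a member. The ANGPTL4 stretch lies at chr19:8363905-8363945 and the ADM stretch at chr11:10304952-10304996, both on the plus strand outside annotated genes, and each held 1 place. Of the PDK1 starts the upstream one had no match, and start 2, at chr2:172556063-172556089 on the plus strand within the bounds of PDK1 and of PDK1-AS1, had 2 places in its last 17 bases before the start. PFKFB3 had 1 place at each start, at chr10:6144733-6144777 upstream of the gene and at chr10:6202814-6202839 within it, both on the plus strand. PFKFB4 had 1 place at chr3:48556955-48556979 on the minus strand, within the annotated bounds of PFKFB4. A match describes letters only and was not measured as binding.

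**Figure D1:**
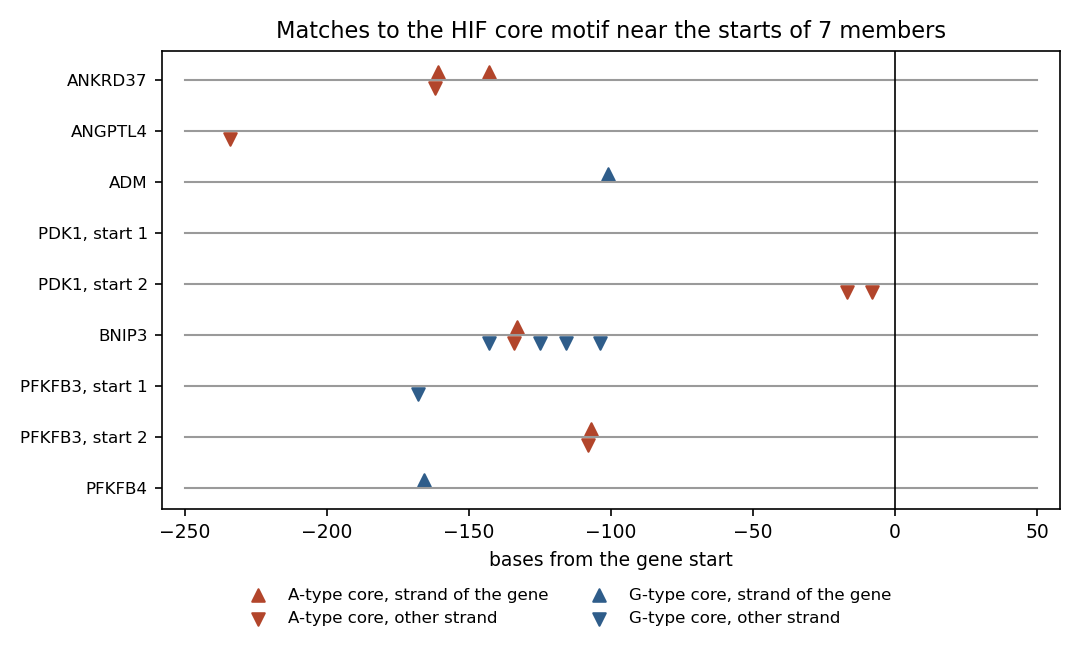
Position of each match to the HIF core motif, in bases from the gene start (vertical line), in the 9 windows of 7 members. Red marks ACGTG and blue GCGTG, upward triangles the strand of the gene and downward triangles the opposite strand, and BNIP3 holds the densest group, between 143 and 104 bases before its start.

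Genes for secreted factors were among the members with the largest differences. Signals of ADM, which encodes the vasodilator peptide adrenomedullin, were 22946 in spheroids and 5930 in monolayer, a 3.87-fold higher signal (log2 difference 1.95) by its only probe set. ANGPTL4 encodes a secreted inhibitor of lipoprotein lipase. Its brighter probe set was at 2127 in spheroids and 384.8 in monolayer, 5.53-fold higher (2.47), and its other probe set at 602.5 and 134.6, 4.48-fold higher (2.16). Both probe sets of ANGPTL4 were therefore past 4-fold, and its log2 difference had place 5 among the 13183 genes measured, that is above the floor on at least 1 array.
VEGFA, the main growth factor of blood vessel endothelium, was higher in spheroids by each of its 4 probe sets but not to the same extent. The brightest, 210512_s_at, had signals of 6710 in spheroids and 2622 in monolayer, 2.56-fold higher (1.36). The probe set 211527_x_at was at 160.9 in spheroids and 64.3 in monolayer, close to the floor, with a fold of 2.50. The probe sets 210513_s_at and 212171_x_at had folds of 1.83 and 1.47, below the 2-fold threshold of the methods. Suffixes _s_at and _x_at mark probe sets that can share sequence with other transcripts, so that splice forms of VEGFA cannot be told apart from them.

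Enzymes that steer glucose carbon showed 1 member just past the threshold and 1 just under it. PDK1, a kinase that phosphorylates pyruvate dehydrogenase, had signals of 2658 in spheroids and 1314 in monolayer, 2.02-fold higher (1.02). Its dimmer probe set gave 166.4 and 91.3, 1.82-fold higher (0.87), and a probe set at 15.7 and 30.3 was under the floor on both arrays. PFKFB4 makes and degrades fructose-2,6-bisphosphate, the activator of phosphofructokinase. It was at 1389 in spheroids and 748.5 in monolayer, 1.86-fold higher (0.89), with its other probe set under the floor on both arrays. PFKFB3, the family member known for its high kinase activity, was at 1965 in spheroids and 1750 in monolayer, 1.12-fold higher (0.17). The array gave PFKFB3 only 1 probe set.

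The receptors that mark mitochondria for autophagy were high on both arrays, and each of their probe sets differed by less than 2-fold. BNIP3 had signals of 9775 in spheroids and 8874 in monolayer by its brighter probe set (log2 difference 0.14). Its other probe set had 3053 in spheroids and 3841 in monolayer, a log2 difference of -0.33, and was alone lower in spheroids among the 17 member probe sets that passed the floor on each array. BNIP3L, also known as NIX, was at 7412 in spheroids and 5295 in monolayer (0.49) and at 4134 and 2570 by its other probe set (0.69). The direction of BNIP3 therefore depends on the probe set, and that of BNIP3L does not. With the median of the probe sets BNIP3 was at -0.10.

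NDRG1, a cytoplasmic protein gene that hypoxia, iron loss and differentiation induce, was bright in both cultures, at 17199 in spheroids and 14590 in monolayer, 1.18-fold higher (0.24) by its only probe set. ANKRD37 encodes an ankyrin repeat protein of little known function. It had signals of 13627 in spheroids and 2289 in monolayer by 227337_at, 5.95-fold higher (2.57), place 2 of all genes by log2 difference. Its other probe set, 242548_x_at, was at 3.86 in spheroids and 52.3 in monolayer, under the floor on both arrays, so that the difference of ANKRD37 rests on 1 probe set. The genes LRP2BP and UFSP2 overlap ANKRD37 in the annotation. LRP2BP was at 283.3 in spheroids and 109.6 in monolayer (1.37), and UFSP2 at 1270 in spheroids and 2234 in monolayer (-0.82).

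**Figure D2:**
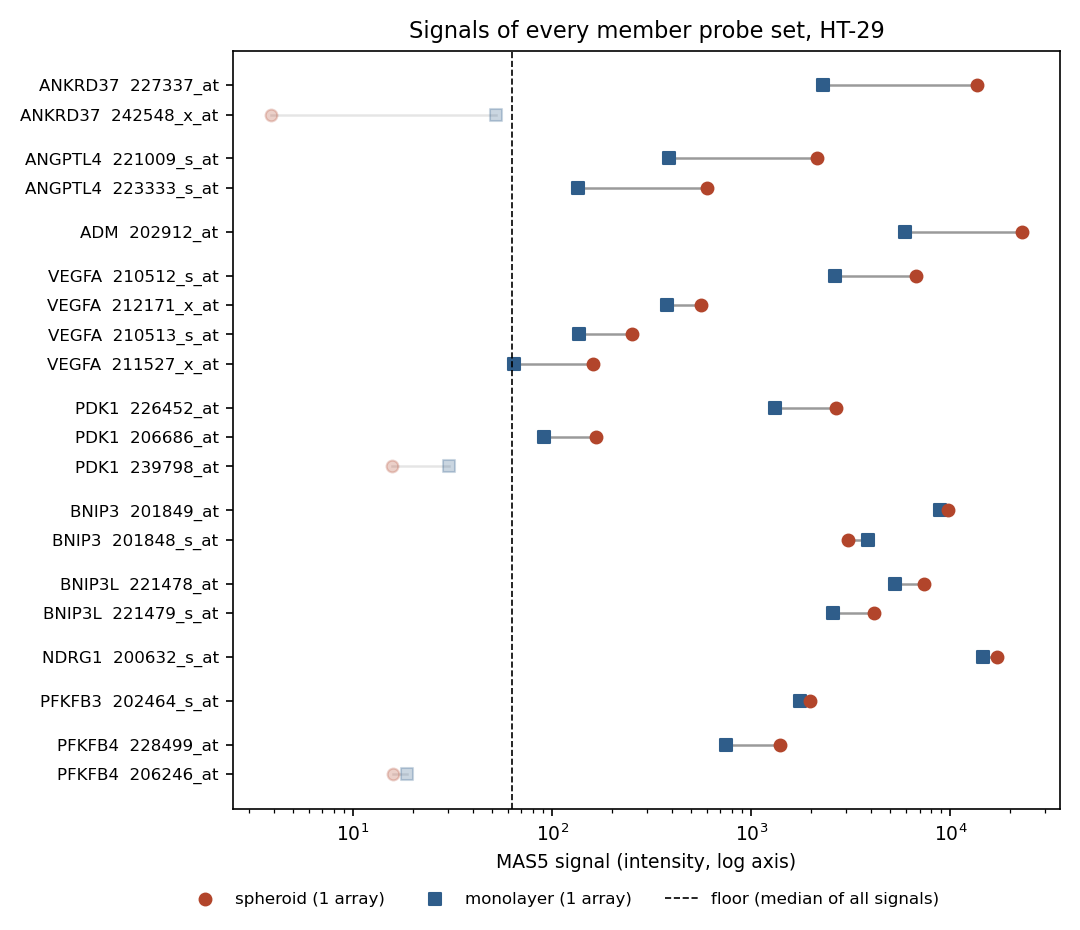
MAS5 signal (log axis) of all 20 probe sets of the members on the spheroid array (red circles) and the monolayer array (blue squares), with the floor of 62.7 as a dashed line and the 3 probe sets under it on both arrays in pale colour. The widest gaps above the floor are those of ANKRD37, ANGPTL4 and ADM, and BNIP3 201848_s_at is the probe set above the floor whose circle lies left of its square.

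Counted together, 5 of the 10 members were at least 2-fold higher in spheroids and 0 were lower by as much. Of the 13183 genes measured, 2.53% were past 2-fold upward and 3.08% downward. The members with the difference closest to the threshold were PDK1 at 1.02 and PFKFB4 at 0.89. At a 1.5-fold threshold 6 members were higher, where 9.53% of genes were. The median log2 difference was 0.95 over the members and -0.05 over all genes measured, and 10 of 10 members lay above 0, as did 45.2% of all genes. By probe set, 7 of the 17 above the floor were at least 2-fold higher, where 4.13% of all probe sets were. These shares were set by the choice of the members, and nothing is read from them. Of all genes past 2-fold on the deposited scale 45.1% were higher. That share was 34.0% after scaling to the array medians, 39.8% after quantile normalization and 78.7% relative to the spike-ins, which moves the median of all genes to 0.18.

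**Figure D3:**
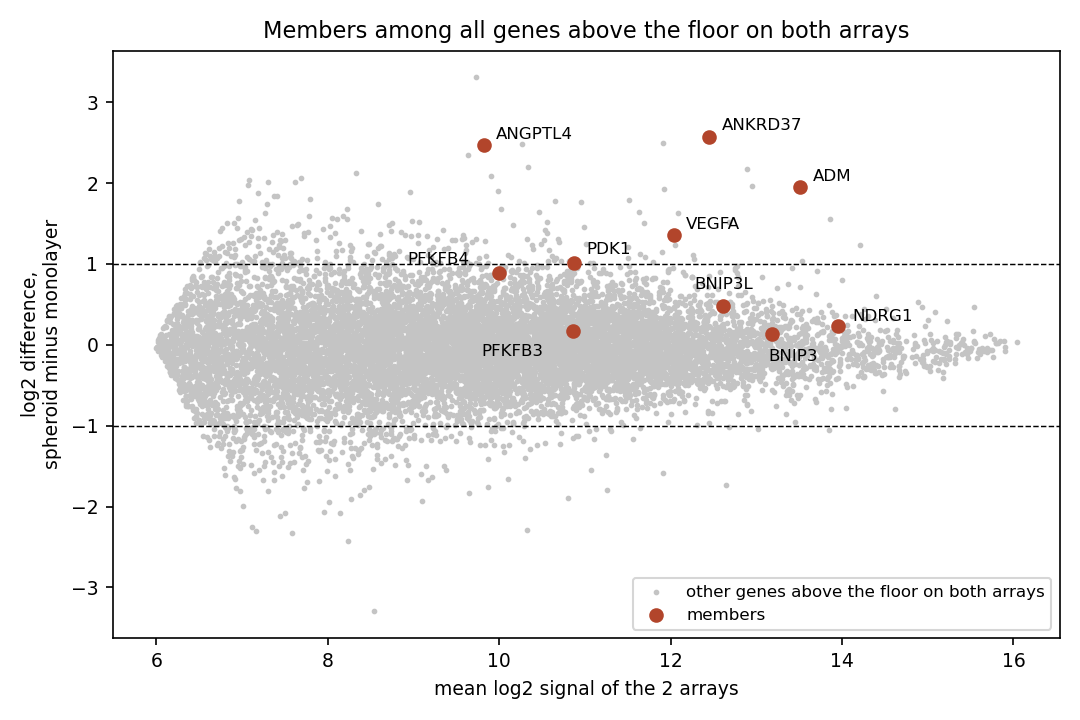
Log2 difference between the spheroid and the monolayer array against the mean log2 signal of the arrays, for genes above the floor on both (grey) and the 10 members (red, named), with dashed lines at 2-fold. ANKRD37, ANGPTL4, ADM, VEGFA and PDK1 lie above the upper line, PDK1 just above it, and BNIP3, NDRG1 and PFKFB3 lie near 0.

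Other known targets of HIF were counted from lists made by function. These lists were chosen with earlier results of these data known, so the counts only describe them. Among 32 measured genes for signalling, matrix and stress, 7 were at least 2-fold higher in spheroids and 1 was lower, 21.9% and 3.12%. Of all genes measured 2.53% were higher and 3.08% lower by as much. The median log2 difference of the 32 genes was 0.32. HILPDA, which promotes lipid droplets, had signals of 7558 in spheroids and 1983 in monolayer, 3.81-fold higher, and its other probe set gave 3.51. BHLHE40, a transcriptional repressor, was at 7623 and 2465, 3.09-fold higher. CXCR4, the chemokine receptor, was at 533.4 and 166.8, 3.20-fold higher, with all 3 of its probe sets past 2-fold. STC2, INSIG2, DDIT4 and WSB1 had log2 differences of 1.28, 1.24, 1.23 and 1.11. DDIT4, an inhibitor of mTORC1, was at 29030 in spheroids and 12350 in monolayer. KDM4C, a histone demethylase, was the gene at least 2-fold lower, at 409.0 in spheroids and 881.4 in monolayer, but its other probe sets above the floor were at 0.05 and -0.08, and relative to the spike-ins 0 genes of this list were past 2-fold downward. The receptor tyrosine kinase MET was at -0.95 by its brightest probe set, and its 4 probe sets ranged from -1.39 to -0.15. LOXL2, which crosslinks collagen, was at -0.80 by its only probe set above the floor.
Of 18 measured HIF targets for the use of glucose, 0 were at least 2-fold higher and 0 lower. Their median log2 difference was -0.08 on the deposited scale, with 8 genes above 0 and 10 under it. Relative to the spike-ins it was 0.17, with 2 genes past 2-fold upward. HK2, the inducible hexokinase, had the largest difference, with signals of 9509 in spheroids and 5158 in monolayer, 1.84-fold higher, although its 3 probe sets ranged from -0.18 to 0.88, and the glucose transporter SLC2A3 was 1.84-fold higher at 554.7 and 302.2. SLC2A1, LDHA and PGK1, which hypoxia commonly induces, were at 0.08, 0.13 and -0.13, with SLC2A1 at -0.68 by a dimmer probe set, and ENO2, the neuronal enolase, was lowest at -0.51. Over both lists, 7 of 50 measured genes (14%) were at least 2-fold higher and 1 was lower. Of all genes measured 2.53% were higher and 3.08% lower by as much.

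The subunits of HIF themselves differed by less than 2-fold. HIF1A, the alpha subunit, had signals of 14192 in spheroids and 12887 in monolayer (0.14), and EPAS1, which encodes HIF-2 alpha, had 3635 in spheroids and 5097 in monolayer (-0.49). ARNT was at 641.8 and 502.0 by its brightest probe set (0.35), and its other probe sets above the floor went the other way (-0.59 and -0.76). Of 7 listed subunits and regulators 5 were measured, 0 past 2-fold, with a median of 0.14. These are mRNA signals, and HIF alpha is regulated mainly as a protein, which was not measured on these arrays.

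**Figure D4:**
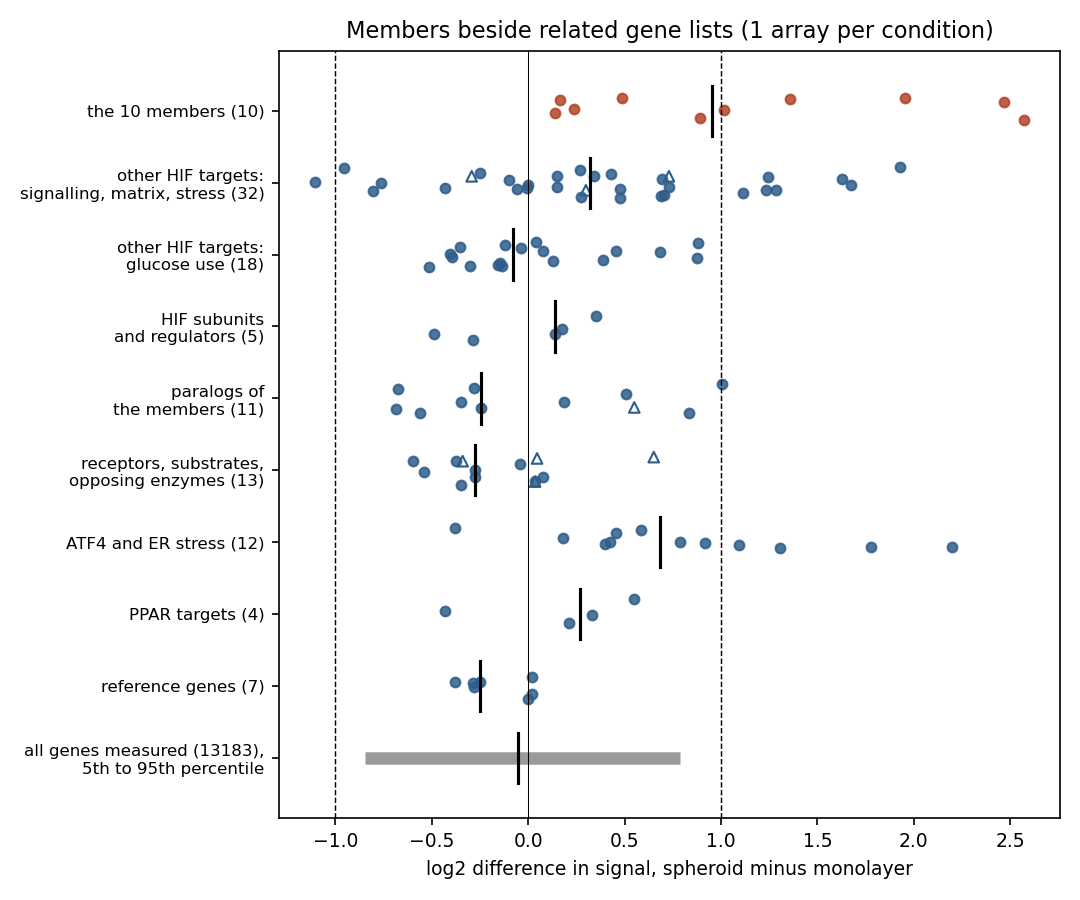
Log2 difference between the spheroid and the monolayer array for the 10 members (red) and genes of related lists (blue), with the number measured in parentheses. Triangles are bounds for genes above the floor on 1 array only, black bars medians, dashed lines 2-fold, and the grey bar runs from -0.85 to 0.79, the 5th to the 95th percentile of all genes measured. The members' median lies at 0.95, that of the glucose list at -0.08.

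Close relatives of the members were counted next. Of 11 measured paralogs 1 was at least 2-fold higher and 0 lower, with a median log2 difference of -0.25 on the deposited scale and 0.00 relative to the spike-ins, where 2 were past 2-fold. Where PDK1 was at 1.02, the other pyruvate dehydrogenase kinases PDK2, PDK3 and PDK4 were at -0.35, 0.19 and -0.56, and the other probe sets of PDK3 above the floor on both arrays were at -0.55, -0.39 and -0.26. PDK4, known as a target of PPAR, had signals of 257.8 in spheroids and 381.0 in monolayer. PFKFB2 was at -0.25 by its brightest probe set and at 0.37 by another, beside 0.17 for PFKFB3 and 0.89 for PFKFB4. NDRG2 and NDRG3 were at -0.68 and -0.28 and NDRG4 at 0.83. PGF, the placental growth factor, was the paralog past 2-fold, at 3111 in spheroids and 1547 in monolayer (1.01), but its other probe set had 134.3 in spheroids and 171.7 in monolayer (-0.35). ADM2 was at 91.2 in spheroids and 145.8 in monolayer (-0.68), opposite in sign to ADM.
Most receptors for the secreted factors were near or under the floor. KDR, the main VEGFA receptor, and CALCRL, RAMP2 and RAMP3, which form the adrenomedullin receptors, lay under the floor on both arrays, as did LPL, the lipase that ANGPTL4 inhibits. FLT1, another VEGFA receptor, was at 10.5 in spheroids and 79.4 in monolayer by its brightest probe set. NRP1, a coreceptor, was at 64.7 in spheroids and 18.9 in monolayer. Both were above the floor on 1 array only, and their other probe sets were under it on both arrays. RAMP1 was measured on both arrays, at 383.3 in spheroids and 557.7 in monolayer (-0.54). The pyruvate dehydrogenase subunit that PDK1 phosphorylates, PDHA1, was at -0.04 by its brightest probe set and at 0.01 and 0.51 by the others, its partner subunit PDHB at -0.27, and the opposing phosphatase PDP1 was at 0.03. The phosphofructokinases PFKP, PFKL and PFKM, which respond to fructose-2,6-bisphosphate, were at -0.37, -0.35 and -0.28, with PFKL at 0.51 by its other probe set, and TIGAR, which degrades that sugar, at 0.08. BCL2L1, a binding partner of BNIP3, was at -0.60, and a dimmer probe set had 52.0 in spheroids, under the floor, and 641.8 in monolayer. BCL2, another partner, was above the floor in spheroids only, at 98.5 against 55.2 in monolayer. Of 13 measured genes of this list 0 were past 2-fold in either direction, with a median of -0.27, and -0.03 relative to the spike-ins.

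VEGFA is also a known target of ATF4, a transcription factor of the amino acid and endoplasmic reticulum stress response. Of 12 measured genes of ATF4 and of endoplasmic reticulum stress 4 (33.3%) were at least 2-fold higher in spheroids and 0 lower. Of all genes measured 2.53% were higher by as much. The median log2 difference of this list, also chosen with earlier results of these data known, was 0.69. DDIT3, which encodes CHOP, had signals of 2769 in spheroids and 603.7 in monolayer, 4.59-fold higher. DNAJB9, a chaperone cofactor, was at 2974 and 867.7, 3.43-fold higher, and ATF3 and CHAC1 were at 1.30 and 1.09, with ATF3 at 0.35 by a dimmer probe set. ATF4 itself was at 0.18 and ASNS, the asparagine synthetase, at -0.38. The part of this response in the members' differences was not tested. Over 7 reference genes the median was -0.25 on the deposited scale and -0.01 relative to the spike-ins, with GAPDH, itself a glycolytic enzyme that hypoxia can induce, at 0.02 and HPRT1 lowest at -0.38.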

How the data were processed

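RNA of HT-29 spheroids and of HT-29 monolayer cells was hybridised to Affymetrix U133 Plus 2.0 arrays. The deposited values are linear MAS5 intensities that the authors computed in Expression Console (version not given in the sources used here) and scaled to a common trimmed mean. No detection calls were used. Duplicates are mentioned in the methods, and 1 array of each culture was analysed.

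Probe sets were named through the platform annotation, in which 41097 of 54675 have 1 gene, 1801 several and 11777 were not listed. Gene numbers of 41043 matched current symbols (RefSeq, GRCh38.p14). The floor was the median over all probe sets and both arrays. Where a gene had several probe sets, the one with the highest mean of log2 signals was used. The threshold of 2-fold is that of the methods, and with 1 array per condition no test was run. The members and all lists were chosen with earlier results of these data known. Lists held paralogs, receptors, substrates and opposing enzymes, other HIF targets (glucose use, or signalling, matrix and stress), HIF subunits, ATF4 and PPAR targets, cell type markers and reference genes. Genes named are all members with every probe set, genes of the paralog and receptor lists, and of other lists those past 2-fold and up to 4 with the largest difference in each direction. LDHA, SLC2A1, PGK1, HIF1A, ATF4, the overlapping genes LRP2BP and UFSP2 and the markers were added after their values were seen. Genes of the lists with no probe set of their own here were not analysed.

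Alternatives were median scaling, quantile normalization, scaling to the hybridisation spike-ins, no floor, a higher floor (the 75th percentile of all signals, or 89.2, the 95th percentile over 135 probe sets of olfactory receptors), a gene's median over probe sets, its most different probe set, a pseudocount of 15.9 and thresholds of 1.5-fold and 3-fold. The computation was tested on simulated data. Python 3.11.15 with numpy 2.4.6, pandas 2.3.3 and matplotlib 3.10.9 was used.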

Additional observations from a re-analysis of the deposited data

How the results depend on the processing

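Across 9 alternatives the log2 difference ranged from 2.50 to 2.82 for ANKRD37, from 2.31 to 2.71 for ANGPTL4, from 1.88 to 2.20 for ADM and from 1.10 to 1.60 for VEGFA, and these 4 stayed past 2-fold in each. PDK1 (0.94 to 1.26) was under 2-fold with median scaling and with the median of its probe sets, which left 4 members past it, where 1.95% and 2.10% of all genes were higher, and PFKFB4 (0.82 to 1.14) was past it relative to the spike-ins, which gave 6, where 5.29% of all genes were. BNIP3 was at -0.33 when the most different probe set was taken and at -0.10 with the median of its probe sets, and no other member was under 0 under any alternative. For a log2 difference, a move smaller than 0.41, the SD between probe sets of a gene, was taken as no change. For a count, a change of at most 1.5-fold was. At 3-fold 3 members and 3 other HIF targets were higher and 0 other targets lower, where 0.394% of all genes were higher. At 1.5-fold 6 members and 15 other HIF targets were higher and 4 other targets lower, where 9.53% of all genes were higher and 11.6% lower.
Over all genes, those higher in spheroids numbered 334 and those lower 406 on the deposited scale. Higher and lower genes numbered 700 and 189 relative to the spike-ins, 2476 and 2502 when no floor was set, 100 and 74 when it was raised to the 75th percentile, 791 and 716 when each gene's most different probe set was taken, 1319 and 1397 with the pseudocount, 52 and 60 at 3-fold, and 1256 and 1535 at 1.5-fold. No paired analysis was possible because each condition has 1 array. Signals near the floor, such as the monolayer signal of VEGFA 211527_x_at at 64.3, lie under the 89.2 of the olfactory receptor probe sets, and their folds are uncertain.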

Other observations

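ANGPTL4 is also a known target of PPAR, a family of fatty acid receptors. Of 8 listed PPAR targets 4 were measured, with 0 past 2-fold in either direction and a median log2 difference of 0.27 between spheroids and monolayer. PLIN2, a lipid droplet coat protein, had signals of 2943 in spheroids and 2010 in monolayer (0.55), and a dimmer probe set was above the floor in monolayer only, at 43.0 in spheroids and 129.0 in monolayer. CPT1A, which brings fatty acids into mitochondria, had 2188 in spheroids and 2948 in monolayer (-0.43), and its 4 probe sets ranged from -1.09 to 0.12. FABP1 and CREB3L3 lay under the floor on both arrays.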
